A study of Mus musculus with 2 samples.

Results

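The genes Fip1l1, Chic2, Gsx2, Pdgfra, Kit and Kdr lie in this order on mouse chromosome 5, and CTCF binding across them was taken from liver of newborn mice. CTCF peaks were kept when their summit lay between 50 kb to the left of Fip1l1 and 50 kb to the right of Kdr, from 74485449 to 76028458 on mm10, a stretch of 1.54 Mb. This rule uses position alone and found 37 of the 57220 peaks of the authors' optimal list, in which peaks were filtered by the irreproducible discovery rate (IDR, a measure of whether a peak's rank repeats between replicates). The peaks are numbered 1 to 37 from left to right along the forward strand.

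The study has 1 group: whole liver of the strain B6NCrl at postnatal day 0, with no treatment or genotype. It has 2 replicates, which the sample descriptions number as biological replicates. Both were given the same biosample and donor labels, and the tissue was pooled from many dissections, so their spread may be technical. The signal of a peak is the value the authors deposited, and each replicate list has signals of its own, lower than in the optimal list at every matched locus peak but peak 6. The scale is not stated, no read counts were used here, and the depth of the libraries is unknown. Newborn liver mixes hepatocytes with blood-forming, endothelial and stellate cells, and these lists do not tell which of them carried a peak, or whether a weak peak marks few cells or weak binding in many. With 1 group there is no contrast to test, so every value below is a description.

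The zinc finger protein CTCF recognises a DNA motif that reads differently on each strand. It halts the cohesin ring as the ring extrudes chromatin loops, and it does so mostly for cohesin that arrives from the side toward which the motif points. Pdgfra, Kit and Kdr encode receptor tyrosine kinases for platelet-derived growth factor, for stem cell factor and for vascular endothelial growth factor. Pdgfra marks mesenchymal cells such as hepatic stellate cells, Kit marks blood-forming progenitors and mast cells, and Kdr marks endothelium. The receptor genes thus mark different cell types, which need not be the only ones that express them. Fip1l1 encodes a subunit of the machinery that cuts and polyadenylates messenger RNA, Chic2 a protein of membrane traffic, and Gsx2 a homeobox factor of the developing forebrain. In human eosinophilic leukaemia a deletion that removes CHIC2 fuses FIP1L1 to PDGFRA, and in human gliomas with mutant IDH the loss of a methylation-sensitive CTCF site between these genes has been tied to PDGFRA activation.

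The following sites show what lay under the peaks near the receptor genes and under the strongest peaks of the locus. Each is read from GRCm38, the assembly that mm10 names, 5′ to 3′ on the strand that carries the core, with the 14-base CTCF core in capitals and 8 bases on each side in lower case. A forward core runs toward Kdr and a reverse core toward Fip1l1. Peaks 13, 17 and 36 match the core without a mismatch.
Peak 10, in the noncoding gene Gm6116, forward, chr5:74961351-74961380: ccagagcaCAGCTAGATGGCGCtcacgcct
Peak 13, upstream of Pdgfra, reverse, chr5:75143403-75143432: gttttagaCCACTAGAGGGCACaagaggcc
Peak 17, Pdgfra intron 1, reverse, chr5:75156362-75156391: tgcgggagCCACTAGAGGGCGCggcaaccc
Peak 18, Pdgfra intron 1, reverse, chr5:75157246-75157275: cagagtagACAGCAGATGGCAGtgttggtt
Peak 29, Kit intron 1, forward, chr5:75575751-75575780: cccacgagCCTGTAGGTGGCGGctatgggg
Peak 30, between Kit and Kdr, reverse, chr5:75736502-75736531: caaggaggCCAGAAGAGGGCAAtgtgtccc
Peak 31, between Kit and Kdr, reverse, chr5:75853241-75853270: taaatcggCCACCAGAGGGCTCcatttctt
Peak 32, between Kit and Kdr, forward, chr5:75862778-75862807: gatgtcagACACTAGGTGGCGAtcttagca
Peak 33, between Kit and Kdr, forward, chr5:75871309-75871338: cagattctCCTGTAGGGGGCGCtgtagttc
Peak 35, upstream of Kdr, forward, chr5:75980703-75980732: ccttcaggCCAGTAAGAGGCAGtgtctccc
Peak 36, beyond Kdr, forward, chr5:76026451-76026480: tgtcccagCCACTAGATGGCACcgaagctc

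CTCF peaks were densest in Pdgfra and just upstream of it. The 5 peaks between Kit and Kdr had a median signal of 210.5, and 4 of them lay within 27.2 kb. No peak lay in Chic2 (46.8 kb), Gsx2 (2.29 kb) or Kdr (45.6 kb). How often genes of such lengths hold no peak was not counted over the list. Of the 37 peaks, 31 lay outside the member genes, 4 in Pdgfra, 1 in Fip1l1 and 1 in Kit. By annotation 25 were intergenic and 12 intronic, counting introns of Lnx1 and of noncoding genes, and no summit lay in an exon. The matching shares over all optimal peaks were not counted, so these counts describe the locus only. Density was 24.0 peaks per Mb in the locus, 26.7 on the rest of chromosome 5 and 22.6 on the autosomes. The median signal was 104.4, against 63.3 on the rest of chromosome 5 and 71.2 over the list, with 22 of the 37 above that list median. Both extremes were less filled than the middle: 7 of the 37 exceeded the upper quartile of the list (184.7) and 6 lay below the lower one (30.4). The nearest peak outside the left edge had a signal of 57.0 and lay 29.8 kb from it, and the first inside was peak 1, 106.2 kb from the edge with 27.9. At the right edge the last peak inside, peak 37, lay 1.44 kb from the edge with 24.8, and the first outside lay 12.6 kb beyond with 66.7.

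**Figure D1:**
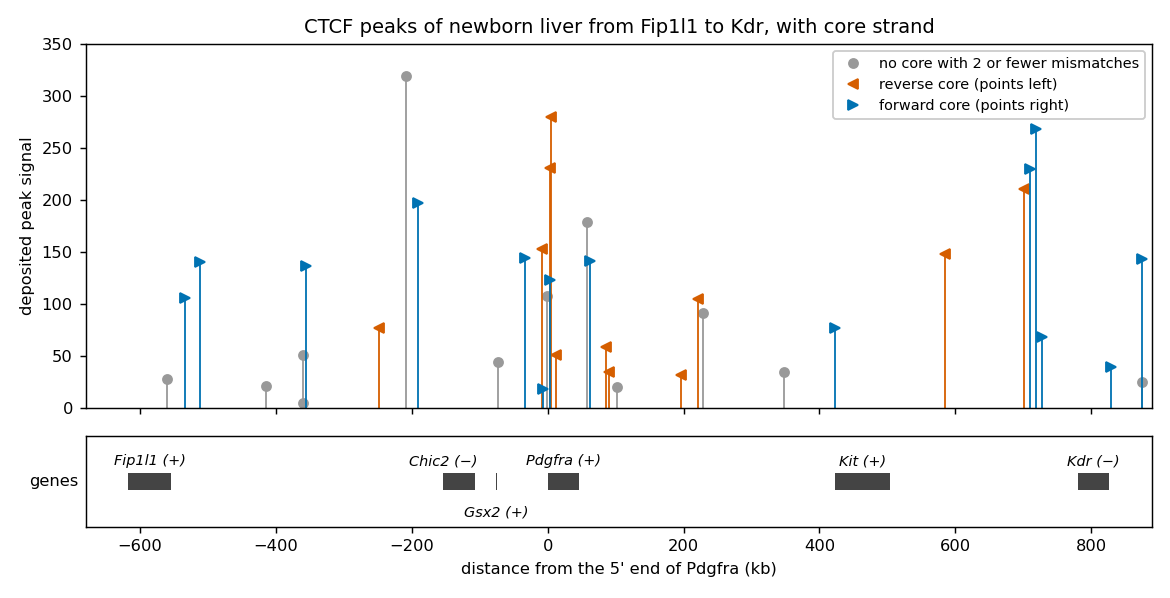
Deposited signal of the 37 CTCF peaks of the optimal list (vertical axis) by distance from the 5' end of Pdgfra in kb (horizontal axis), with the 6 genes drawn to scale below and their strand in brackets. Triangles point the way of a unique core with at most 2 mismatches, and grey circles mark peaks without one. The highest point is peak 9 with 319.3, and the groups at Pdgfra and between Kit and Kdr reach 279.4 and 268.5.

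Spacing was uneven. The median distance between neighbouring summits was 23.1 kb, compared with 14.6 kb on the autosomes. Of the 36 distances in the locus, 6 exceeded 100 kb, and of all neighbouring autosomal peaks 8.42% did. The longest, 160.7 kb, ran from peak 29 at the start of Kit to peak 30 and held nearly the whole Kit gene. Another of 118.4 kb, from peak 10 to peak 11, held all of Chic2 and Gsx2, and one of 100.2 kb, from peak 34 to peak 35, held all of Kdr. At the other end of the scale, 4 distances were under 1 kb. Runs of 3 or more peaks less than 10 kb apart, a limit set after the values were seen, occurred 3 times: peaks 5 to 7, peaks 13 to 19 around the start of Pdgfra and peaks 31 to 34 between Kit and Kdr. The run of peaks 5 to 7, and the short distance of 0.199 kb in it, rest on peak 6. That peak overlaps peak 5, with a signal of 4.27. Neither short distances nor such runs were counted over the list.

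The left part of the locus, from Fip1l1 to Chic2, carried the strongest peak. Within Fip1l1 (74535449 to 74598800, forward strand) the only peak was peak 1, in intron 15, from 74591471 to 74591754. Its signal was 27.9, with 12.4 in the list of replicate 1 and 14.2 in that of replicate 2. It lay 56.2 kb downstream of the 5' end of Fip1l1, and no optimal peak lay closer to that end. Each replicate list did hold 1 call within 1 kb of the Fip1l1 5' end, at rank 107629 in replicate 1 and 71625 in replicate 2, among the weak calls that these lists of 300000 peaks contain. Peaks 2 and 3 lay in introns 6 and 2 of Lnx1, which encodes a ubiquitin ligase and overlaps the end of Fip1l1 on the other strand, with signals of 105.9 and 140.5.

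Peak 9 had the highest signal of the locus, 319.3, which ranked 4710 of 57220. It lay in intergenic sequence from 74944080 to 74944351, 4.97 kb before the start of the noncoding gene Gm6116, 100.6 kb beyond the 5' end of Chic2 on the downstream side and 208.1 kb left of Pdgfra. The replicate lists gave 167.0 (rank 4351) and 152.5 (rank 5220), a mean of 159.7 ± 10.2 (SD, n = 2), and both placed it first in the locus. No core with 2 or fewer mismatches was found within 50 bp of its summit. The best match had 4, and this forward match also passed a position weight matrix learned from peaks of the other chromosomes (score 9.06 against a minimum of 7.05). The peak is printed whole because it leads the locus without a close core, forward strand, with the best match in capitals.
Peak 9, chr5:74944080-74944351: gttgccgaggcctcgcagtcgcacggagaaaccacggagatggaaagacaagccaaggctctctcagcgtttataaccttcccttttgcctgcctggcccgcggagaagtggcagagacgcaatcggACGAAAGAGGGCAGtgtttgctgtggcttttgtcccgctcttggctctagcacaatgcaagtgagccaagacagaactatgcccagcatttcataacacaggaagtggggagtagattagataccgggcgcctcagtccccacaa

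Peak 10 followed 17.1 kb to the right, in an intron of Gm6116, with a signal of 197.1 and 84.3 and 111.7 in the replicates. Its core, shown above, has 2 mismatches and did not pass the weight matrix (score -3.92). Between Lnx1 and peak 9 the other intergenic peaks, 4 to 8, ranged from 4.27 to 136.5. The lowest of the locus, peak 6, had its summit 199 bp from that of peak 5, overlapped it, and had no summit within 100 bp in the list of replicate 1, while that of replicate 2 gave 7.51.

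The stretch from Gsx2 to Pdgfra held 5 peaks in 74.4 kb, or 67.2 per Mb, and Pdgfra itself 4 in 45.9 kb, or 87.1 per Mb. These were the densest of the 13 intervals between and within the genes and in the flanks. The 5' flank of Kdr came next, with 3 peaks in 50 kb, or 60 per Mb. Chic2 (74997988 to 75044774, reverse strand) and Gsx2 (75075601 to 75077893, forward strand) held none. Peak 11, the nearest to Gsx2, lay 4.20 kb downstream of its 5' end, past the end of the gene, from 75079657 to 75079940. Its signal was 44.0, with 23.6 and 19.0 in the replicates, and it had no core. It was also the nearest peak to the 5' end of Chic2, at 35.0 kb. Peaks 12, 13 and 14 lay in introns of the noncoding gene Gm19583, 33.2, 8.88 and 6.77 kb upstream of Pdgfra. Peak 13 was the strongest of the stretch with 153.0 (75143294 to 75143489), and 87.2 and 66.2 in the replicates, over its perfect reverse core in repeat-masked sequence. Peak 12 had 144.2 and peak 14 only 17.8.

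At the 5' end of Pdgfra (75152292 to 75198215, forward strand) peak 15 lay 976 bp upstream, from 75151235 to 75151381. Its signal was 107.8, with 44.1 in replicate 1 and 63.9 in replicate 2, and it had no core with 2 or fewer mismatches. Inside intron 1 peaks 16, 17 and 18 stood close together, 3.53, 4.08 and 4.97 kb downstream of the 5' end, and each lay within 1 kb of an internal transcript start. Peak 16 had a signal of 122.6. Peak 17 (75156254 to 75156487) had 230.3, with 108.5 and 122.4 in the replicates, and covered a perfect reverse core that holds a CpG. Peak 18 had 279.4, the second of the locus, with 148.5 (rank 6352) and 132.2 (rank 7748) in the replicates, a mean of 140.4 ± 11.5 (SD, n = 2). Both replicates thus placed peaks 17 and 18 above peaks 15 and 16. Peak 19, in intron 3, was weaker at 50.8. No peak of the optimal list lay in the rest of the gene. Peak 18 is given whole as the strongest peak in a gene of this locus, on the reverse strand, core in capitals.
Peak 18, chr5:75157142-75157378: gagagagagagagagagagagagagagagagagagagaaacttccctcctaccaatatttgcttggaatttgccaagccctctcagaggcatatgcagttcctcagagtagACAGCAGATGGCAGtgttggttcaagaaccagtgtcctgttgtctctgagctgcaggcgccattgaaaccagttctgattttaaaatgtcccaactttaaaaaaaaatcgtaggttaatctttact

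**Figure D2:**
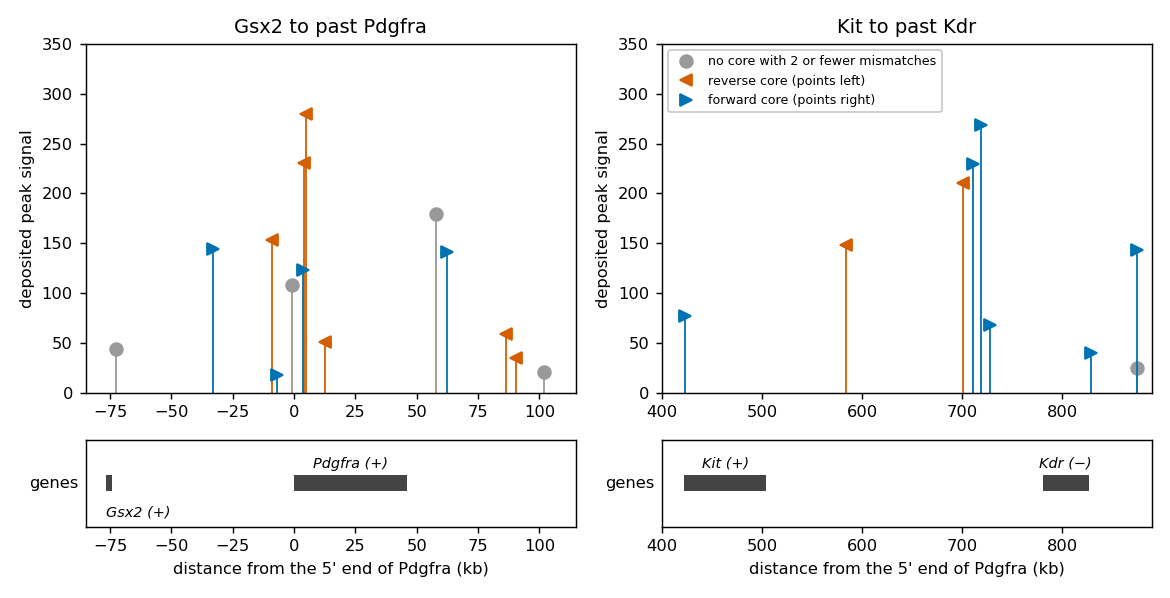
The same values enlarged, deposited signal (vertical axis) by distance from the 5' end of Pdgfra in kb (horizontal axis), on the left from Gsx2 past Pdgfra and on the right from Kit past Kdr. Triangles point the way of the core, circles have none. On the left a forward core (peak 16, 122.6) and 2 reverse cores (peaks 17 and 18, 230.3 and 279.4) stand side by side in Pdgfra intron 1, and on the right the reverse core of peak 31 (210.5) is followed by the forward cores of peaks 32 to 34.

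Between Pdgfra and Kit 9 peaks spread over 376.7 kb (23.9 per Mb), with a median signal of 58.5. The strongest was peak 20, 57.8 kb to the right of the Pdgfra 5' end, from 75209991 to 75210186. It had 179.0, with 85.1 and 95.5 in the replicates, and its best core had 3 mismatches. Peak 21 followed 4.64 kb later with 141.3. Signals of the other 7 ran from 20.5 to 104.4, and peak 28, the last before Kit, lay 74.99 kb upstream of it with 34.9. Peak 26 (104.4) lay 906 bp from the start of the small nuclear RNA gene Gm22084.

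Kit (75574916 to 75656722, forward strand) held peak 29 alone, 893 bp downstream of its 5' end in intron 1, from 75575667 to 75575950. The signal was 76.4, with 41.0 (rank 26793) in replicate 1 and 35.9 (rank 28116) in replicate 2, a mean of 38.4 ± 3.58 (SD, n = 2). The core printed above has 1 mismatch, but its centre lay 43.5 bp from the summit, and the weight matrix found no passing site. The remaining introns of Kit held no optimal peak.

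Between Kit and Kdr 5 peaks lay in 276.1 kb (18.1 per Mb), all with a core, and their median signal was 210.5. Peak 30 stood alone, 161.6 kb downstream of the Kit 5' end, from 75736420 to 75736615, with 147.8 and with 79.3 and 70.3 in the replicates. Peaks 31 to 34 lay within 27.2 kb of each other. Peak 31 (75853133 to 75853384), 306 bp from the start of the noncoding gene Gm28865, had 210.5, with 93.7 and 113.9 in the replicates. Peak 32 (75862672 to 75862907) had 230.0, with 122.4 and 109.6. Peak 33 (75871205 to 75871453) was the third strongest of the locus with 268.5, and had 138.8 (rank 7604) and 129.9 (rank 8056) in the replicates, a mean of 134.4 ± 6.27 (SD, n = 2). Peak 34 was weaker at 68.0. In replicate 1 the order was 33, 32, 31, and in replicate 2 it was 33, 31, 32, so the order of peaks 31 and 32 did not repeat. The group lay 98.0 to 125.2 kb beyond the Kdr 5' end, on the side of its 3' end.

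Kdr (75932827 to 75978458, reverse strand) held no peak, and neither replicate list nor the pooled list had any call within 1 kb of its 5' end. Its nearest peak was peak 35, 2264 bp upstream, from 75980580 to 75980863, with 39.3 and with 19.9 and 18.2 in the replicates. The core of peak 35 has 2 mismatches and did not pass the weight matrix (score 3.70). Peak 36, from 76026396 to 76026548, lay 48.0 kb upstream of Kdr over a perfect core with 143.6, and 70.9 and 72.2 in the replicates.

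Among the 6 genes, Pdgfra and Kit had a peak within 1 kb of an annotated start, and both also had one within 1 kb of the 5' end. Over all 21938 protein-coding genes 36.2% had a peak at any start and 28.3% at the 5' end. The nearest peaks to the other 5' ends lay 2.26 kb away for Kdr, 4.20 kb for Gsx2, 35.0 kb for Chic2 and 56.2 kb for Fip1l1. Counting starts of any gene, 7 of the 37 peaks lay at a promoter, beside 20.6% of all optimal peaks. These were peaks 15 to 18 at Pdgfra, 26 at Gm22084, 29 at Kit and 31 at Gm28865.

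The core with at most 2 mismatches was found at 25 of the 37 peaks, each time with 1 best match, and at 71.2% of all optimal peaks. The match was perfect at 3, had 1 mismatch at 8 and 2 at 14. Every peak between Kit and Kdr and in Pdgfra had a core, while the single peak in Fip1l1 had none. At 20 of the 25 no more than 10 bp parted summit and core centre, beside 69.9% over the list. The weight matrix passed at 26 locus peaks and placed its best site on the same bases as the core at 24 of the 25. Peaks 10, 25, 29 and 35 had a core but no passing matrix site, and peaks 1, 9, 20, 27 and 28 the reverse.

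Signal followed the match only loosely. The 3 peaks with a perfect core had 143.6, 153.0 and 230.3, with a median below the 228.1 of such peaks over the list, and no peak with 0 or 1 mismatch was below 58.5. Peaks with 2 mismatches ran from 17.8 to 230.0 with a median of 113.5, above the 62.2 of such peaks over the list. Those with 3 had a median of 27.9, below the 42.2 of the list. The 5 with 4 ranged from 4.27 to 319.3 with a median of 51.1, above the 28.6 of the list. At 1 mismatch the medians were 125.1 in the locus and 118.2 over the list. Across the 37 peaks Spearman's rho of signal and mismatches was -0.45, and over the list it was -0.44. These are correlations across peaks of 1 list, which share libraries and are not replicates.

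**Figure D3:**
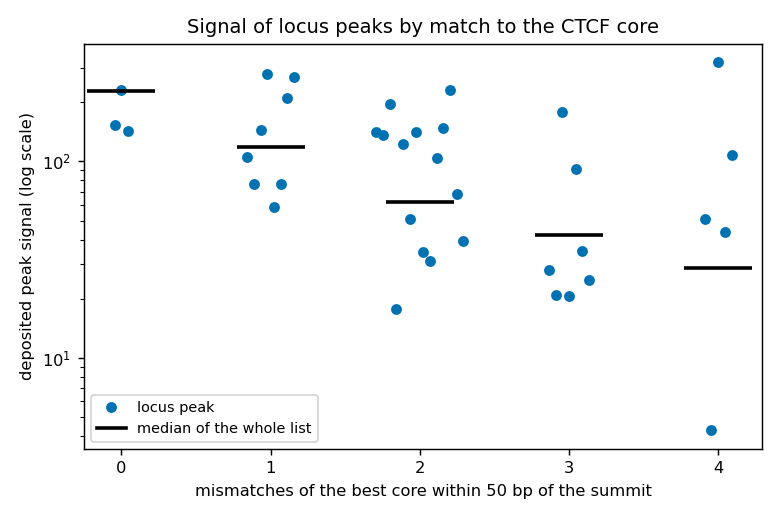
Deposited signal on a log scale (vertical axis) by the number of mismatches of the best core within 50 bp of the summit (horizontal axis). Points are the 37 locus peaks, spread sideways for view, and bars are medians of the whole list, 228.1 for a perfect core and 28.6 for 4 mismatches. Peak 9 (319.3) stands at the top of the column of 4 mismatches.

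A CpG lay inside the core at 12 of the 25 peaks, beside 34.0% of unique cores over the list. Cytosine methylation at CpG within the motif is known to weaken CTCF binding. In Pdgfra the cores of peaks 16, 17 and 19 held one and that of peak 18 did not. Between Kit and Kdr those of peaks 32, 33 and 34 held one and those of peaks 30 and 31 did not. No methylation was measured here. Summits fell in repeat-masked sequence at 6 of the 37 peaks, among them 13, 19 and 30, compared with 27.5% of the peaks on the rest of chromosome 5.

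Cores in the locus pointed forward at 14 peaks and in reverse at 11, or 56% forward, beside 49.8% of unique cores over the list. The strands differed by place, by counts that were not tested. To the left of Pdgfra 6 of 8 cores were forward. In Pdgfra 1 was forward and 3 were reverse, and between Pdgfra and Kit 1 was forward and 4 were reverse. From Kit rightward 6 of 8 were forward, though between Kit and Kdr alone 3 were forward and 2 reverse. Peaks 10, 29 and 35, counted as forward, and peak 25, counted as reverse, had no passing matrix site. With at most 1 mismatch the locus had 5 forward cores and 6 reverse. Left of Pdgfra those of peaks 2 and 12 were then forward and those of peaks 8 and 13 reverse. From Kit rightward those of peaks 29, 33 and 36 were forward and that of peak 31 reverse. Inside Pdgfra intron 1 the cores of peaks 16 and 17 face each other 553 bp apart. Between Kit and Kdr the cores of peaks 31 and 32 point away from each other 9.54 kb apart. The last 5 cores of the locus, of peaks 32 to 36, were all forward: those of peaks 32 to 34 point toward Kdr, and those of peaks 35 and 36, on its other side, point away from it.

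Neighbouring cores at most 200 kb apart, passing over peaks with none, formed 23 pairs. Of these 14 pointed the same way, 5 toward each other and 4 apart. Over the list 52.0% of such pairs pointed the same way and 23.4% toward each other. Among peaks at or above the median signal of the list the locus had 7 pairs pointing the same way, 5 toward each other and 4 apart, so the majority of same-way pairs did not hold there. With at most 1 mismatch the counts were 4, 1 and 1. The facing pairs were peaks 7 and 8 (108.0 kb apart), 12 and 13 (24.4 kb), 16 and 17, 21 and 22 (23.9 kb) and 29 and 30 (160.8 kb). The last pair had nearly all of Kit between its cores. In the conservative list a further reverse core in Kit, 18.6 kb downstream of its 5' end, stood between them. The core of peak 29 had no passing matrix site, and that of peak 30 has 2 mismatches. Only the pair of peaks 26 and 29, pointing apart over 202.7 kb, was beyond the distance limit.

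The replicates ranked the locus peaks much alike. Of the 37, 36 had a summit within 100 bp in both replicate lists, beside 97.1% of all optimal peaks, and the exception was peak 6. Spearman's rho of the replicate signals across these 36 was 0.964. The optimal list was built from these same lists, so neither value is independent of that choice. The ratio of replicate 2 to replicate 1 had a median of 0.915 in the locus, and 22 of 36 peaks were higher in replicate 1. Over the list the median was 0.962, with 5% of ratios below 0.552 and 5% above 1.66. Peaks 25 and 28, both weak and between Pdgfra and Kit, fell below that span with 0.368 and 0.535. The conservative list held 34 of the 37, beside 87.8% of all optimal peaks, and the missing ones were peaks 4, 6 and 25.

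**Figure D4:**
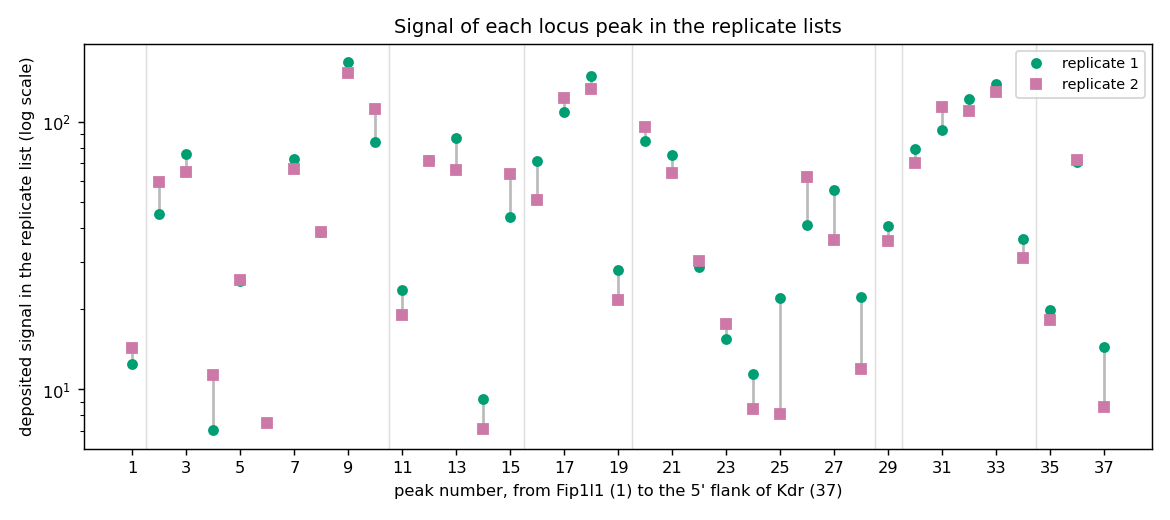
Deposited signal of each locus peak in the list of replicate 1 (circles) and of replicate 2 (squares) on a log scale (vertical axis), by peak number along the chromosome (horizontal axis). Grey lines join the replicates of a peak and pale upright lines part the intervals between and within genes. The pairs stay close for the strong peaks and part most at peak 25, where the ratio is 0.368.

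Related receptors and ligands elsewhere in the genome served as a wider view of this pathway. Of 5 other receptors of the same families, none had a peak within 1 kb of an annotated start. The nearest peak to a 5' end was 1.03 kb away for Flt4 (24.0), a receptor of lymphatic endothelium, and 2.23 kb for Flt3 (126.7), a receptor of blood progenitors. For Pdgfrb it was 5.13 kb away (297.9), for Flt1 7.88 kb (140.3) and for Csf1r, the receptor of macrophage growth factors, 14.3 kb (68.4). Of 13 ligands 8 had such a peak, and 6 had one at the 5' end. Over all protein-coding genes these shares were 36.2% and 28.3%, and the difference was not tested. The strongest were at Flt3l (480.9), Vegfa (458.9), the main growth factor of endothelium, and Pgf (391.7), the last 8.14 kb from the 5' end. Vegfc had 96.5, Pdgfd 94.8, Pdgfa 56.9, Csf1 40.2 and Pdgfb 14.2. Kitl, the ligand of Kit, had its nearest peak 137.4 kb from the 5' end (135.3).

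The paralogous receptor genes Flt3 and Flt1 lie on the same chromosome with Pan3, a gene of messenger RNA decay, between them. With 50 kb on either side, from 147280741 to 147776011, they held 33 peaks in 0.495 Mb, or 66.6 per Mb, set beside 24.0 from Fip1l1 to Kdr. Their median signal was 45.1 against 104.4. A core was found at 25 of 33. Of the 24 with a single best match 9 were forward and 15 reverse, and 1 peak of the 33 lay at a promoter. Flt1 held 9 peaks, Flt3 5 and Pan3 2. The strongest, 376.6, from 147293167 to 147293453, lay beyond the 3' end of Flt3 (185.0 and 193.1 in the replicates). These differences between the loci were not tested.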

How the data were processed

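CTCF ChIP-seq peak lists in narrowPeak format on mm10 were deposited by the authors, 1 for each of the 2 replicates, 1 for both pooled and 2 IDR lists made from these 3 lists and 1 further file, per the text deposited with the samples. The signal in each list is the value the authors deposited, on a scale that is not stated. In the locus the optimal list carries the signal of the pooled list. Aligner, caller, thresholds and library depth: not given in the sources used here.

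Summits were set as start plus offset. Replicate peaks were matched within 100 bp. Genes came from GENCODE M21 and sequence from RefSeq GRCm38.p6. On the assembled chromosomes, the peaks of both IDR lists and the strongest peaks of each replicate list lie within its chromosome lengths. The 14-base CTCF core, in ambiguity letters, was sought on both strands with up to 2 mismatches, the whole core no more than 50 bp from the summit. It occurs so in 2.98% of windows 1 kb away. A 20-base weight matrix was learned from peaks outside chromosome 5, with its minimum score set to pass as many displaced windows. Both searches were tested on simulated data. Peaks described in full are those nearest each 5' end, the strongest of each interval and the 10 strongest. The genes, lists and members were chosen with earlier results of these data known. Python 3.11.15, NumPy 2.4.6, pandas 2.3.3, SciPy 1.17.1 and matplotlib 3.10.9 were used. Alternatives were other lists, flanks, distances, mismatch limits and the matrix.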

Additional observations from a re-analysis of the deposited data

Results flagged for a closer look

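The conservative list held 2 peaks in the locus that have no optimal peak within 100 bp and so entered none of the peak counts above. One, from 75113607 to 75113890 in the noncoding gene Gm19583, had a conservative-list signal of 26.6, with 12.8 (rank 47178) in replicate 1 and 13.5 (rank 45228) in replicate 2. It has a unique forward core with 2 mismatches and lies 5.30 kb from peak 12. The other, from 75593358 to 75593641 in Kit, 18.6 kb downstream of the 5' end, had 15.3, with 6.88 and 7.53 in the replicates. It has a unique reverse core with 2 mismatches. Both signals equal those of the same peaks in the pooled list.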

How the results depend on the processing

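Of the 97 alternative values computed, 83 stayed within 1.5 times of the reported count or within the replicate SD of a value (within 0.05 for rho), and 14 moved. Keeping only peaks at or above the median signal of the list left 22 locus peaks, 14.3 per Mb, with a median signal of 143.9. With each replicate alone the median signal was 42.6 to 55.5, on the scale of those lists, and the locus held 36 to 38 peaks. With at most 1 mismatch 11 peaks had the core, 5 cores were forward and 6 reverse, so the forward majority did not hold, and 1 pair was convergent. Within 5 kb of any start 18 peaks counted as promoter peaks. The 5 convergent pairs were 4 with the weight matrix and 6 with a flank of 200 kb. A signal with no known depth allows no interval, so small differences between weak peaks are not readable.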
